A study of Arabidopsis thaliana with 21 samples.

Results

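Transcripts of 7 Arabidopsis thaliana genes named for their response to touch or for their likeness to calmodulin were followed in 14-day-old seedlings with mutations in the trihelix transcription factor genes ASIL1 and ASIL2. The genes made up 7 of the 24100 loci with at least 1 count in the deposited files. In TAIR10.1, TCH2 (AT5G37770, chr5:14997514-14999619, minus strand), TCH4 (AT5G57560, chr5:23307006-23308680, minus strand) and CML37 (AT5G42380, chr5:16942447-16943820, minus strand) lie on chromosome 5. TCH3 (AT2G41100, chr2:17137037-17139700, plus strand) lies on chromosome 2. CML23 (AT1G66400, chr1:24770419-24771393), CML38 (AT1G76650, chr1:28766750-28768138) and CML39 (AT1G76640, chr1:28765254-28765866) lie on the minus strand of chromosome 1, the last 2 of them 883 bases apart. They were chosen by name with their levels in every library already known, so those levels and the fold changes made from them are a description and carry no p-value.

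The 21 libraries fell into 7 groups of 3, which the series design calls biological replicates. The mutants were asil1-1 asil2-1, asil1-1 and asil2-1 in the Columbia-0 ecotype (Col-0), asil2-2 in Landsberg erecta (Ler), and the double mutant asil1-1 asil2-2, labelled with both of these ecotypes. The wild types were Ler and Col-0. Because asil1-1 asil2-2 carries the labels of 2 ecotypes, neither wild type is its full control, and it was set against each of them. All seedlings grew for 14 days at 22 °C with 16 h of light on MS medium lacking sucrose, and no group was touched, wounded or otherwise treated per the labels. Polyadenylated RNA of whole seedlings was sequenced, so fewer cells of a type and less RNA per cell cannot be told apart.

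Touch, wind or wounding raises free calcium inside plant cells within moments. Calmodulins and calmodulin-like proteins bind that calcium through EF-hand motifs, and CAMTA transcription factors, which bind calmodulin, act on genes whose promoters carry a CGCG core. The touch genes are known as some of the first transcripts to rise after a plant is touched and to fall again soon after. TCH2 and TCH3 encode calmodulin-like proteins, and TCH4 encodes a xyloglucan endotransglucosylase/hydrolase (XTH), an enzyme that cuts and rejoins wall xyloglucan. CML23 is a close relative of TCH2. CML37, CML38 and CML39 form a group of calmodulin-like genes whose first 2 members are known to rise on wounding and other stresses.

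The upstream letters of 3 members are shown because 2 of them share CGCG cores and a longer run, and the third has no such core. Each window is the 250 bases before the annotated start of the gene in RefSeq's TAIR10.1, read on the strand of the gene, and capitals mark the CGCG core. The windows lie on the minus strand at chr5:14999620-14999869 for TCH2, chr1:24771394-24771643 for CML23 and chr5:23308681-23308930 for TCH4.
TCH2: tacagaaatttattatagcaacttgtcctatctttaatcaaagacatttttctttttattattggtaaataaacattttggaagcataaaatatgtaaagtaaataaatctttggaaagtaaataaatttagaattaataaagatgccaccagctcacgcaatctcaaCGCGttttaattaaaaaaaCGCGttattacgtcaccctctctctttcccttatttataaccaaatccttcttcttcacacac
CML23: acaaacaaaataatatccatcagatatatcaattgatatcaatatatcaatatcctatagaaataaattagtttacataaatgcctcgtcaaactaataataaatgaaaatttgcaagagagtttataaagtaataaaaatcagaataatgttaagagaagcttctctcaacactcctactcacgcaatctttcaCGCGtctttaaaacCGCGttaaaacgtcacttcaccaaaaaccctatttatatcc
TCH4: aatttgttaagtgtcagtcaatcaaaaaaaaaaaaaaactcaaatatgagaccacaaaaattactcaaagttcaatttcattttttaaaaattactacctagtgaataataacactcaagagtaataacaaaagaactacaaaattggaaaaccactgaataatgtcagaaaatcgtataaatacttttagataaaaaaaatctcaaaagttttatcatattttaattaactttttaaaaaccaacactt

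TCH2 had its 2 CGCG cores at -82 and -63 from the start, and CML23 had 2 at -55 and -41. Both windows also held the run ctcacgcaatct of 12 letters, at -97 in TCH2 and at -71 in CML23, and no other of the 19480 windows of tested genes held it on either strand. The window of TCH3 overlaps the loci AT2G41090, which lies 37 bases from TCH3, and AT2G09220, so its letters belong in part to other genes. The CGCG core, which reads the same on both strands, was in 2 of the 7 members' windows, against 10.7% of all windows. The W-box core TTGAC, the letters that WRKY factors bind, was in 3 members (TCH4, CML23 and CML38), against 45.1% of all windows. GTGATT, letters of the GT-box kind that trihelix factors bind, was in CML38 alone of the 7, against 15.7% of all windows. The G-box CACGTG was in 0 of 7 members' windows and in 7.22% of all. Both strands were searched, no 2 of these motifs overlapped in a member, and a match describes letters only.

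**Figure D1:**
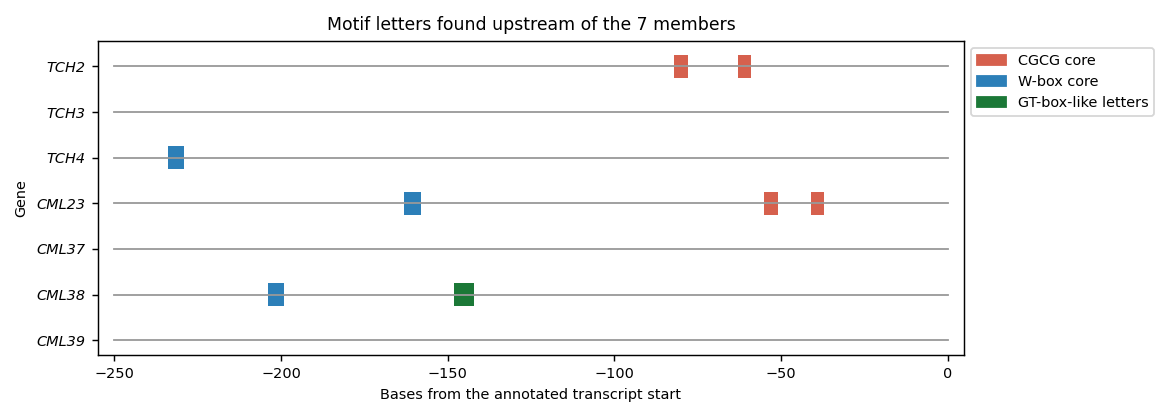
Positions of the CGCG core, the W-box core and the GT-box-like letters in the 250 bases before the annotated start of each of the 7 members, in bases from the start on the x axis. The 2 CGCG cores of TCH2 and of CML23 lie within the last 82 bases, and 3 members have none of the letters. The TCH3 window overlaps AT2G41090 and AT2G09220.

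Depth was 6522764 to 28794135 counts per library. A total of 19589 genes passed the filter on low counts, among them 6 of the 7 members. CML39 was removed by it. ASIL1 transcript, given as CPM, the count as a share of the library total after TMM scaling for composition, fell to 8.01 ± 0.639 in asil1-1 asil2-1, 4.83 ± 0.314 in asil1-1 and 5.66 ± 1.13 in asil1-1 asil2-2, against 33.0 ± 3.32 in Ler and 33.6 ± 1.25 in Col-0 (SD, n = 3, edgeR adjusted p from 4.75e-12 to 8.59e-10). ASIL2 transcript did not fall with the labels: it was 435 ± 54.5 CPM in libraries labelled asil2-1 and 168 ± 32.5 CPM in asil1-1 asil2-1, against 38.1 ± 8.97 CPM in Col-0 (edgeR adjusted p = 1.34e-09 and 2.86e-07). It was 75.9 ± 15.5 CPM in asil1-1 asil2-2 and 24.4 ± 6.45 CPM in asil2-2, against 31.6 ± 4.15 CPM in Ler (edgeR adjusted p = 7.87e-05 and 0.268). Counts over the whole ASIL2 gene therefore do not check the asil2 labels, and asil2-1 and asil2-2 stand throughout for libraries so labelled. Leaf marker transcripts were abundant in every library, and the summed level of 4 seed storage markers was at most 0.283 CPM. Of 15 root markers, ESB1 had no count in any library and the summed level of all 15 was 85.7, 99.4 and 27.3 CPM in Col-0 replicates 1, 2 and 3. Elsewhere the sum of the root markers ranged from 5.61 to 48.6 CPM, so Col-0 replicates 1 and 2 stood apart, and comparisons with Col-0 are also given with replicate 3 as its only library.

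The members differed widely in level. Per kilobase of exon, TCH3 had the highest level of the 7 in Col-0, 56.1 ± 15.6 CPM per kb, followed by TCH4 at 34.1 ± 25.6 and TCH2 at 16.5 ± 7.32 CPM per kb (SD, n = 3). CML23 had 3.26 ± 0.938, CML38 2.64 ± 1.13 and CML37 0.328 ± 0.233 CPM per kb in Col-0. CML39 was near the limit of detection. Its counts were 1 in asil2-1 replicate 2, 1 and 2 in asil2-2 replicates 2 and 3, 1 and 2 in Ler replicates 2 and 3, and 4 in Col-0 replicate 2, with no count in the other 15 libraries. In 3 groups it had no count in any library, which allows a level of up to 0.0726 CPM in asil1-1 asil2-1, 0.0980 CPM in asil1-1 and 0.0677 CPM in asil1-1 asil2-2 (3 counts over a group, counting error only), so no difference in CML39 was detectable at this depth.

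**Figure D2:**
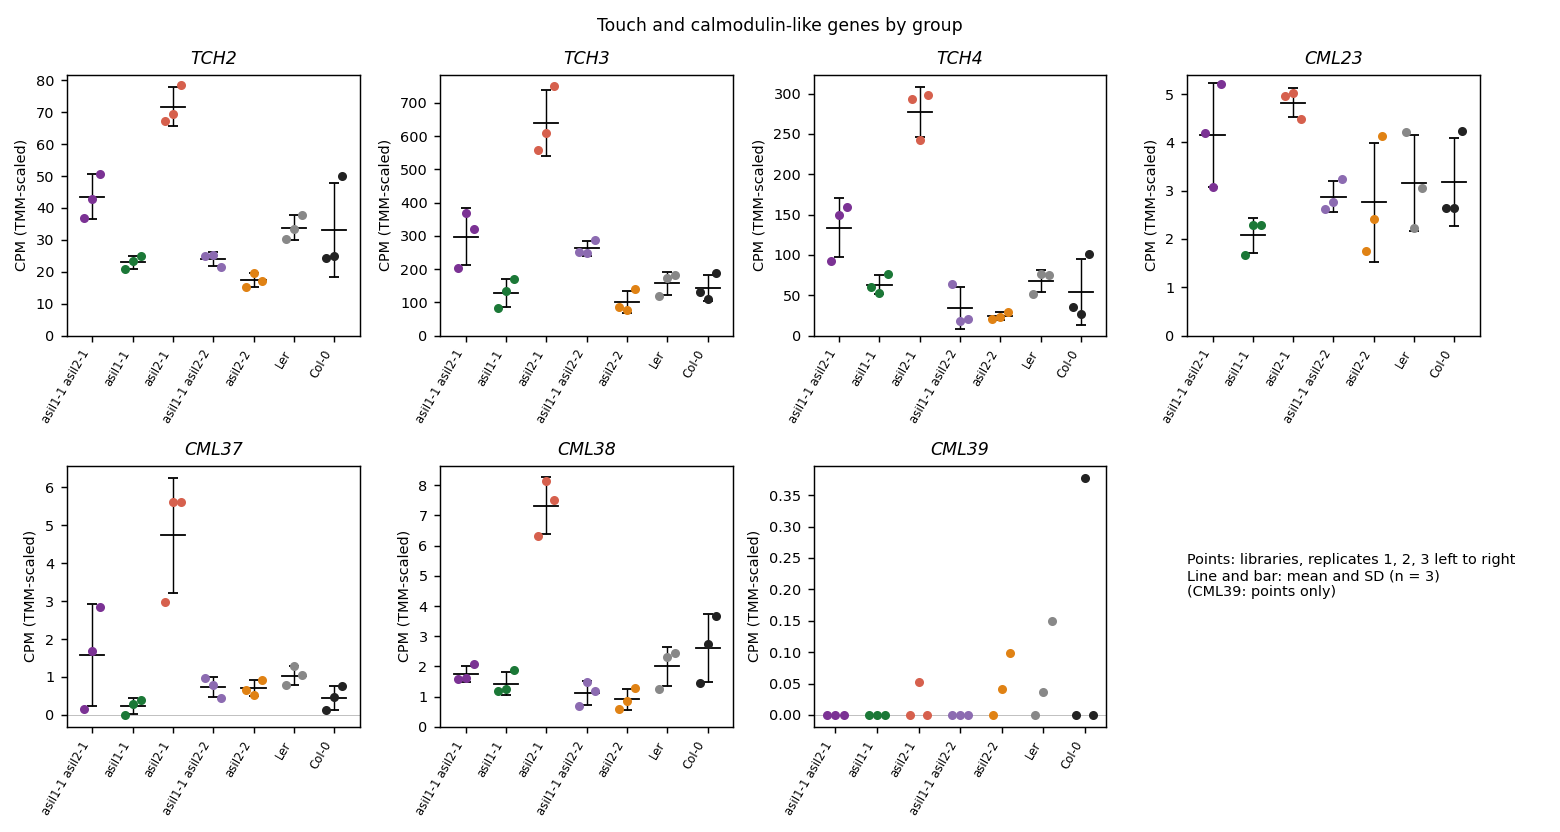
CPM of each of the 7 members in each library, with 1 point per replicate, a line at the group mean and bars of 1 SD (n = 3, points alone for CML39). For TCH2, TCH3, TCH4, CML37 and CML38 the 3 asil2-1 points lie above all 18 other points, and the y axis differs between panels.

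In asil2-1 seedlings all 6 members that could be measured were above Col-0, among the touch genes by 2.17-fold for TCH2, 4.47-fold for TCH3 and 5.12-fold for TCH4. TCH3 had 557, 609 and 751 CPM in asil2-1, 202, 368 and 322 CPM in asil1-1 asil2-1, 84.3, 133 and 169 CPM in asil1-1, and 132, 110 and 187 CPM in Col-0. Its asil2-1 libraries were above all others, its asil1-1 asil2-1 libraries were also above Col-0, and asil1-1 overlapped Col-0. The log2 fold change of TCH3 in asil2-1 against Col-0 was 2.16 ± 0.297 (SE).

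TCH4 had 293, 242 and 298 CPM in asil2-1, 92.3, 149 and 160 CPM in asil1-1 asil2-1, 59.8, 53.0 and 76.9 CPM in asil1-1, and 35.5, 26.4 and 101 CPM in Col-0. The enzyme gene was highest in asil2-1 again, while asil1-1 asil2-1 and asil1-1 overlapped Col-0, whose replicate 3 was high. Against Col-0 the log2 fold change of TCH4 in asil2-1 was 2.36 ± 0.501. TCH2 had 67.3, 69.4 and 78.6 CPM in asil2-1, 36.7, 42.9 and 50.8 CPM in asil1-1 asil2-1, 20.8, 23.4 and 24.8 CPM in asil1-1, and 24.4, 24.8 and 50.1 CPM in Col-0. Only its asil2-1 libraries were clear of Col-0, with a log2 fold change of 1.12 ± 0.198.

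CML38 had 6.32, 8.14 and 7.53 CPM in asil2-1, 1.59, 1.63 and 2.07 CPM in asil1-1 asil2-1, 1.19, 1.24 and 1.88 CPM in asil1-1, and 1.44, 2.74 and 3.69 CPM in Col-0. Here asil1-1 asil2-1 lay within the range of Col-0 rather than above it, and the log2 fold change of asil2-1 against Col-0 was 1.47 ± 0.322. CML37 had 33, 106 and 70 counts in asil2-1, or 2.98, 5.61 and 5.61 CPM, against 1, 5 and 7 counts in Col-0, or 0.1203, 0.472 and 0.759 CPM. In asil1-1 asil2-1 it had 0.168, 1.70 and 2.85 CPM, a spread that overlapped Col-0. With so few counts in Col-0, the log2 fold change of CML37 in asil2-1, 3.35 ± 0.664, has the widest error of the 6. CML23, the relative of TCH2, moved least, with 4.96, 5.02 and 4.48 CPM in asil2-1, 4.19, 3.07 and 5.20 CPM in asil1-1 asil2-1, 1.66, 2.29 and 2.28 CPM in asil1-1, and 2.65, 2.65 and 4.23 CPM in Col-0. Reads of the near relatives TCH2 and CML23 could also be split by the counting. The asil2-1 libraries of CML23 were just above Col-0, by 0.61 ± 0.301 on the log2 scale, and by 1.11 ± 0.304 after a correction for gene length.

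Libraries did not overlap between asil2-1 and Col-0 for 6 of 6 members, all higher, where 27.8% of the genes tested were higher and 23.3% lower without overlap. The 3 asil2-1 libraries were above all 18 others for 5 of the 6, CML23 being the exception, and for 3.38% of the genes tested. The median log2 fold change of the 6 was 1.82 in asil2-1, beside 0.02 over all genes tested. Since these contrasts were known when the members were chosen, the counts are given beside the background and nothing is read from them. With Col-0 replicate 3 as its only library the median was 1.24, and the values were 0.53 ± 0.180 for TCH2, 1.78 ± 0.441 for TCH3, 1.47 ± 0.599 for TCH4, 0.20 ± 0.422 for CML23, 2.65 ± 0.967 for CML37 and 1.01 ± 0.426 for CML38. The summed root markers were 6.86 to 29.0 CPM in asil2-1 and 27.3 to 99.4 CPM in Col-0, and the summed leaf markers were 13170 to 17220 CPM in asil2-1 and 23540 to 29170 CPM in Col-0. Their part in the members' levels was not tested.

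**Figure D3:**
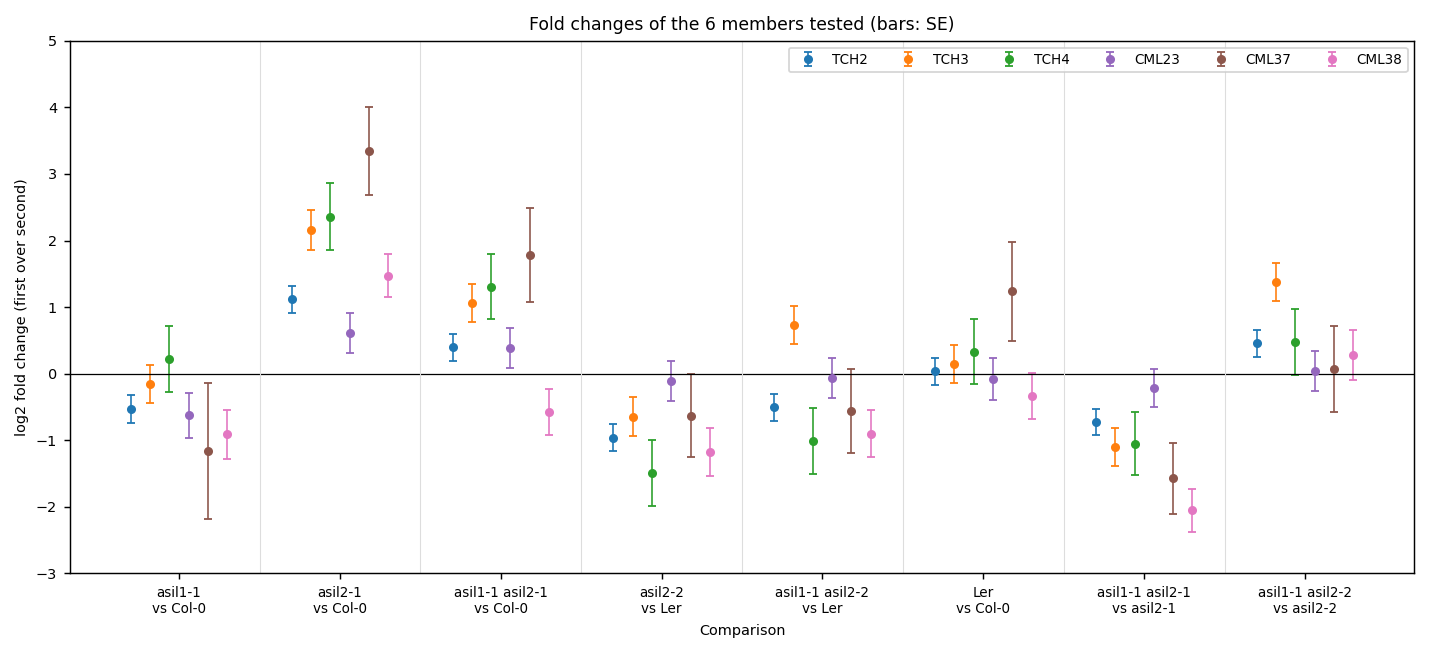
Log2 fold changes of the 6 members that passed the filter in 8 comparisons, the first-named group over the second, with bars of 1 SE. All 6 points are above 0 for asil2-1 against Col-0, with a median of 1.82, and all 6 are below 0 for asil2-2 against Ler, with a median of -0.80.

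The other Columbia mutants were nearer to wild type. In asil1-1 asil2-1 the median log2 fold change against Col-0 was 0.73, and TCH3 alone of the 6 did not overlap Col-0, at 1.06 ± 0.289 higher, where 26.2% of genes tested were higher without overlap. TCH4 was 1.31 ± 0.490 and CML37 1.78 ± 0.710 above Col-0, and CML38 was lower by a log2 change of -0.58 ± 0.349, all with overlap. The 500 genes nearest to CML38 in exonic length had a median of -0.37 there. Over the alternatives the value of CML38 ranged from -1.05 to -0.15. With Col-0 replicate 3 alone the median in asil1-1 asil2-1 was 0.20, with TCH2 at -0.20 ± 0.175 and CML23 at -0.02 ± 0.422, so the direction of these 2 turned on the Col-0 libraries used. In asil1-1 the median was -0.58 against Col-0, and 5 of the 6 had a fold change below 0. CML23 was the 1 member without overlap in asil1-1, at -0.63 ± 0.334, where 15.4% of genes tested were lower without overlap. CML37 had 0, 3 and 3 counts in asil1-1, against 1, 5 and 7 in Col-0, too few for a statement.

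The double mutant asil1-1 asil2-1 lay between its single mutants for most members. Against asil2-1, 5 of the 6 were lower in asil1-1 asil2-1 without overlap, where 13.5% of genes tested were, and the median log2 fold change was -1.08. CML38 had the largest difference at -2.05 ± 0.324, followed by CML37 at -1.57 ± 0.534, TCH3 at -1.10 ± 0.286, TCH4 at -1.05 ± 0.474 and TCH2 at -0.72 ± 0.192. CML23 overlapped, at -0.22 ± 0.285. Against asil1-1, the 6 were higher in asil1-1 asil2-1 with a median of 1.05, and 4 did not overlap (TCH2, TCH3, TCH4 and CML23), where 17.9% of genes tested were higher without overlap. CML37, at 2.94 ± 0.818, and CML38, at 0.33 ± 0.375, overlapped asil1-1.

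In asil2-2 against Ler the members lay the other way. All 6 had a fold change below 0, with a median of -0.80 beside -0.001 over all genes tested. TCH2 had 15.2, 19.7 and 17.2 CPM in asil2-2 and 24.9, 25.4 and 21.5 CPM in asil1-1 asil2-2, against 30.2, 33.5 and 37.8 CPM in Ler. Both mutants were below Ler without overlap, by a log2 change of -0.96 ± 0.201 in asil2-2 and -0.50 ± 0.200 in asil1-1 asil2-2. TCH4 had 19.9, 22.9 and 29.8 CPM in asil2-2 and 63.9, 17.6 and 20.1 CPM in asil1-1 asil2-2, against 51.2, 76.2 and 75.2 CPM in Ler. It was lower in asil2-2 without overlap, at -1.49 ± 0.497, while replicate 1 of asil1-1 asil2-2 stood within the range of Ler and the other 2 stood below it.

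TCH3 parted from the other touch genes in the mixed-ecotype double mutant. It had 252, 248 and 289 CPM in asil1-1 asil2-2 and 86.4, 76.6 and 140 CPM in asil2-2, against 118, 173 and 181 CPM in Ler. The asil1-1 asil2-2 libraries were above both asil2-2 and Ler, and also above Col-0, while asil2-2 overlapped Ler. The summed leaf markers were 14160 to 16350 CPM in asil1-1 asil2-2 and 18120 to 22700 CPM in asil2-2, against 21150 to 22670 CPM in Ler and 23540 to 29170 CPM in Col-0. They too parted asil1-1 asil2-2 from the other 3 groups without overlap, and their part in the TCH3 values was not tested. Its log2 fold change in asil1-1 asil2-2 was 0.73 ± 0.286 against Ler and 0.88 ± 0.288 against Col-0. CML38 had 0.581, 0.859 and 1.28 CPM in asil2-2 and 0.688, 1.48 and 1.18 CPM in asil1-1 asil2-2, against 1.25, 2.30 and 2.46 CPM in Ler. Both mutants overlapped Ler narrowly, at -1.17 ± 0.355 for asil2-2 and -0.90 ± 0.358 for asil1-1 asil2-2. CML37, with 0.653, 0.532 and 0.934 CPM in asil2-2 and 0.964, 0.801 and 0.442 CPM in asil1-1 asil2-2, overlapped the 0.779, 1.29 and 1.04 CPM of Ler. CML23 also overlapped, with 1.74, 2.41 and 4.13 CPM in asil2-2 and 2.62, 2.77 and 3.24 CPM in asil1-1 asil2-2, against 4.20, 2.23 and 3.06 CPM in Ler.

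Without overlap, 2 of the 6 members were lower in asil2-2 than in Ler, where 12.3% of genes tested were. In asil1-1 asil2-2 against Ler, 1 member was lower (TCH2) and 1 was higher (TCH3), where 20.6% and 19.7% of genes tested were lower and higher without overlap. Against Col-0, 1 of the 6 was higher in asil1-1 asil2-2 (TCH3), where 20.6% were, and the median was -0.30. That median was 0.13 without Col-0 replicate 3 and -0.80 with Col-0 replicate 3 alone. Against asil2-2, asil1-1 asil2-2 was higher for all 6 in fold change, with a median of 0.36, and did not overlap for TCH3, at 1.38 ± 0.290, and TCH2, at 0.45 ± 0.202, where 19.4% were higher without overlap. CML23, at 0.04 ± 0.295, CML37, at 0.07 ± 0.642, and TCH4, at 0.48 ± 0.497, overlapped. Their sign was not kept over the alternatives, with lowest values of -0.188, -0.16 and -0.366. Between the wild types the median was 0.09 for Ler against Col-0 and -0.52 with Col-0 replicate 3 alone. Of the 6, only CML37 did not overlap between Ler and Col-0, at 1.24 ± 0.737, where 23.5% of genes tested were higher without overlap.

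Ordered by group mean, asil2-1 was the highest group for 6 of 6 members, as it was for 17.1% of genes tested, and asil2-2 was the lowest for 4 of 6 (TCH2, TCH3, TCH4 and CML38), as it was for 14.2%. The range between the highest and the lowest group was taken on means of log2 CPM with a prior count of 2, not on mean CPM. It was 14.5-fold for CML37, 11.5-fold for TCH4, 7.36-fold for CML38, 6.49-fold for TCH3, 4.11-fold for TCH2 and 2.26-fold for CML23. The lowest group of CML37, asil1-1, had 6 counts in all. For TCH3 the order was asil2-1, then asil1-1 asil2-1, then asil1-1 asil2-2, Ler, Col-0, asil1-1 and asil2-2, and neighbours in it were clear of each other only above asil1-1 asil2-1 and below asil1-1 asil2-2. TCH4 ran asil2-1, asil1-1 asil2-1, Ler, asil1-1, Col-0, asil1-1 asil2-2 and asil2-2, with the first 3 clear of one another and all later neighbours overlapping. TCH2 ran asil2-1, asil1-1 asil2-1, Ler, Col-0, asil1-1 asil2-2, asil1-1 and asil2-2, with only the first and the last clear of their neighbours. In CML37 and CML38 the first group, asil2-1, was clear of the next, and no later neighbours were, while in CML23 all neighbours overlapped.

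The 2 asil2 comparisons share no libraries, and their difference (asil2-2 against Ler minus asil2-1 against Col-0) was below 0 for all 6 members, with a median of -2.73. It was -3.98 ± 0.918 for CML37, -3.85 ± 0.705 for TCH4, -2.80 ± 0.411 for TCH3, -2.65 ± 0.479 for CML38, -2.08 ± 0.282 for TCH2 and -0.71 ± 0.426 for CML23. The alleles differ in ecotype as well as in mutation, so allele and ecotype cannot be told apart.

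Replicate 3 of Col-0 was the highest Col-0 library for 6 of 6 members, as it was for 40.9% of genes tested. In TCH4 it stood at 101 CPM against 35.5 and 26.4 CPM, and in TCH2 at 50.1 CPM against 24.4 and 24.8 CPM. The same library had the lowest root marker sum of Col-0.

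Genes outside the 7 were tested in the same fit, from 6 lists that were also drawn up with earlier results of these data known: 124 loci, of which 116 had counts and 102 were tested. Of the 102, 40 rose and 26 fell in asil2-1 against Col-0, where 41.3% of all genes tested were called in either direction. After a correction for gene length, 36 of them rose and 12 fell. In asil1-1 asil2-1 28 rose and 25 fell (39.2% of all genes called), in asil1-1 asil2-2 15 rose and 20 fell (32.2%) and in Ler 19 rose and 21 fell (36.1%) against Col-0. In asil1-1 3 rose and 17 fell (17.3%) against Col-0, and 6 to 20 were called on leaving out 1 library. In asil2-2 2 rose and 15 fell (5.96%) and in asil1-1 asil2-2 13 rose and 19 fell (28.3%) against Ler. In asil1-1 asil2-2 against asil2-2 19 rose and 7 fell (23.3%). The largest shift was in 22 genes of the rapid mechanical and wound response, mostly transcription factors, signalling genes and genes of jasmonate synthesis. In asil2-1, 20 of the 22 rose against Col-0, with a median log2 fold change of 2.201, while 21.9% of all genes tested were called higher (edgeR's quasi-likelihood test, Benjamini-Hochberg adjusted p below 0.05). CZF1 and SZF1, a pair of related zinc finger genes, stood at 512 ± 82.1 and 625 ± 115 CPM in asil2-1, against 55.3 ± 12.4 and 58.7 ± 17.8 CPM in Col-0 (SD, n = 3). Their log2 fold changes were 3.21 ± 0.232 for CZF1 (edgeR adjusted p = 2.31e-08) and 3.41 ± 0.271 for SZF1 (edgeR adjusted p = 1.14e-07), and all 3 asil2-1 libraries were above Col-0 in both. WRKY53, a WRKY factor gene, had 93.9 ± 22.1 CPM in asil2-1, against 4.34 ± 1.57 CPM in Col-0 (log2 4.41 ± 0.385, edgeR adjusted p = 3.89e-07). The 2 genes not called, named after their values were seen, were the jasmonate synthesis genes AOS, at -0.01 ± 0.154, and OPR3, at 0.11 ± 0.194. With Col-0 replicate 3 alone, fewer of the 22 were called higher, and the share of all genes called in that fit is not given.

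In asil2-2, 13 of the same 22 genes fell against Ler, with a median of -1.51, while 3.57% of all genes tested were called lower. ATL2, a RING finger gene, had 15.6 ± 4.10 CPM in asil2-2, against 51.4 ± 8.72 CPM in Ler (log2 -1.73 ± 0.227, edgeR adjusted p = 2.22e-04). SZF1 had 45.7 ± 6.56 CPM in asil2-2, against 176 ± 41.9 CPM in Ler (log2 -1.95 ± 0.256, edgeR adjusted p = 2.79e-04), and CZF1 46.0 ± 2.86 CPM in asil2-2, against 136 ± 17.9 CPM in Ler (log2 -1.56 ± 0.219, edgeR adjusted p = 3.74e-04). The count varied with the libraries used, from 5 to 14 on leaving out each in turn, and was 15 by DESeq2. It was 8 without asil2-2 replicate 1, 5 without asil2-2 replicate 2 and 6 without Ler replicate 3. Shares of all genes called in these smaller fits are not given. Called higher in asil2-1 and lower in asil2-2 were 12 of the 22, or 54.5%, and 297 of all 19589 genes tested, or 1.52%. The difference between the 2 effects was called below 0 for 20 of the 22, with a median of -4.11, where 12.1% of all genes tested were.

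**Figure D4:**
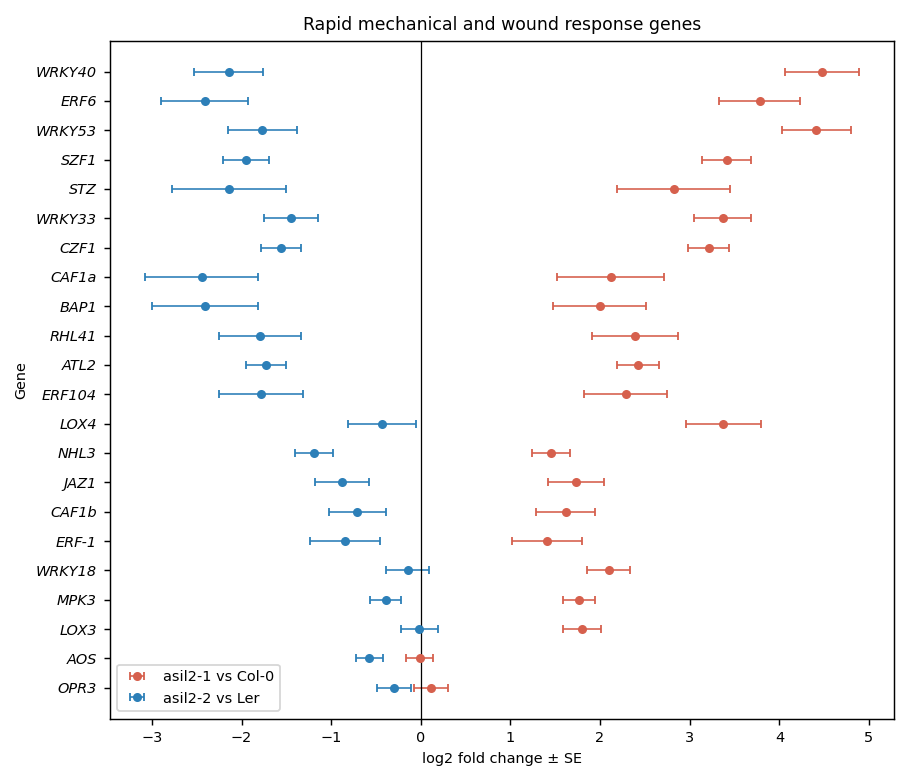
Log2 fold changes with 1 SE of the 22 rapid mechanical and wound response genes for asil2-1 over Col-0 and for asil2-2 over Ler, ordered by the difference. In asil2-1, 20 genes were called higher, and in asil2-2, 13 were called lower, so that the 2 sets of points lie on opposite sides of 0 for most genes.

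In the double mutants the median of the same list had the sign of the members' median, except in asil1-1 asil2-2 against Col-0. There 3 of 22 rose and 1 fell (median 0.24), where 16.7% and 15.5% of all genes tested were called higher and lower. The members' median there was -0.305, and 0.126 without Col-0 replicate 3. In asil1-1 asil2-1, 13 of 22 rose against Col-0 (median 1.15), where 20.5% of all genes tested were called higher. The count was 8 without asil1-1 asil2-1 replicate 3 and lower still with Col-0 replicate 3 alone. Against asil2-1, 13 of 22 fell in asil1-1 asil2-1 (median -1.18), where 3.04% of all genes tested were called lower and 3.17% higher. Among them MPK3, a MAP kinase gene, had 156 ± 33.5 CPM in asil1-1 asil2-1, against 353 ± 84.2 CPM in asil2-1 (log2 -1.18 ± 0.176, edgeR adjusted p = 2.27e-04). LOX3, a lipoxygenase gene of jasmonate synthesis, had 22.2 ± 4.003 CPM in asil1-1 asil2-1, against 62.7 ± 19.8 CPM in asil2-1 (log2 -1.50 ± 0.204, edgeR adjusted p = 1.08e-04). Against asil1-1, 11 of 22 rose in asil1-1 asil2-1 (median 1.42), where 6.21% were called higher and 9.43% lower, and 18 rose by DESeq2 and 19 with a replicate block. In asil1-1 asil2-2, 10 of 22 fell against Ler and 1 rose (median -0.67), where 13.5% and 14.8% were called lower and higher. The 10 became 6 without asil1-1 asil2-2 replicate 2 and 7 without Ler replicate 3. Against asil2-2, 7 rose in asil1-1 asil2-2 and 2 fell, where 13.4% and 9.85% were called higher and lower, and 3 to 5 of the 7 were left without replicate 1, 2 or 3 of asil1-1 asil2-2 or replicate 1 or 2 of asil2-2. BAP1, a membrane-associated C2 domain gene, was among the 7, with 4.38 ± 1.87 CPM in asil1-1 asil2-2, against 0.718 ± 0.274 CPM in asil2-2 (log2 2.54 ± 0.581, edgeR adjusted p = 0.00391). In Ler against Col-0, 11 rose (median 0.65), where 17.9% were called higher. That count was 5 without Col-0 replicate 1, 6 without Col-0 replicate 2 and 7 without Ler replicate 3. It was lower still with Col-0 replicate 3 alone. In asil1-1 against Col-0, 0 of 22 were called by edgeR, with 2 lower at an unadjusted p below 0.05, and 1 was called lower by DESeq2, where 8.91% and 8.35% of all genes tested were called higher and lower by edgeR.

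The calmodulin genes proper lay opposite to the calmodulin-like members in asil2-1 against Col-0 before a length correction. In asil2-1, 6 of the 7 calmodulin genes fell against Col-0, with a median log2 fold change of -0.74, where 19.3% of all genes tested were called lower. After the length correction 3 of the 7 fell and 1, CAM2, rose. CAM4 had 46.1 ± 1.48 CPM in asil2-1, against 88.1 ± 4.68 CPM in Col-0 (log2 -0.93 ± 0.119, edgeR adjusted p = 4.73e-06). CAM6 had 20.2 ± 0.896 CPM in asil2-1, against 37.1 ± 1.56 CPM in Col-0 (log2 -0.88 ± 0.121, edgeR adjusted p = 1.17e-05), and was not called after the length correction, at -0.18 with an edgeR adjusted p of 0.163. In asil1-1 asil2-1, 6 of the 7 fell too (median -0.73), where 18.8% were called lower, and in Ler 5 of 7 were lower than in Col-0 (median -0.61), where 18.3% were. In asil2-2 against Ler, 1 of 7 fell, CAM2, with 28.9 ± 3.37 CPM in asil2-2, against 48.3 ± 7.30 CPM in Ler (log2 -0.75 ± 0.136, edgeR adjusted p = 0.00204). There the calmodulin median was -0.04 beside -0.80 for the members, and in asil1-1 against Col-0 both medians were below 0. Calmodulin genes are near-identical in coding sequence, and no source used here says how reads that match several of them were counted, so values of single calmodulin genes are uncertain.

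Among 27 tested genes of the other calmodulin-like family, 5 rose and 8 fell in asil2-1 against Col-0 (median -0.37), or 18.5% and 29.6% beside 21.9% and 19.3% of all genes tested. After the length correction 6 rose and 4 fell. AT3G29000 and AT5G39670, both annotated as EF-hand proteins, had 16.6 ± 5.89 and 14.2 ± 2.42 CPM in asil2-1, against 2.00 ± 1.69 and 4.21 ± 0.863 CPM in Col-0. Their log2 fold changes were 3.07 ± 0.567 for AT3G29000 (edgeR adjusted p = 4.41e-04) and 1.76 ± 0.353 for AT5G39670 (edgeR adjusted p = 7.01e-04). AT1G12310, also annotated as EF-hand, fell to 24.0 ± 2.74 CPM in asil2-1, against 42.7 ± 2.69 CPM in Col-0 (edgeR adjusted p = 1.79e-05). With Col-0 replicate 3 alone, fewer rose and fewer fell. In asil1-1 asil2-1 against Col-0, 10 of the 27 fell, beside 18.8% of all genes tested, and 0 rose by edgeR, with 0 higher at an unadjusted p below 0.05 and 0 by DESeq2. Fewer fell with Col-0 replicate 3 alone. In asil1-1 asil2-2 against asil2-2, 8 rose, beside 13.4% of all genes tested, and 0 fell by edgeR, with 1 lower at an unadjusted p below 0.05 and 0 by DESeq2, and the 8 became 5 without asil1-1 asil2-2 replicate 2. AT3G29000 fell to 2.97 ± 2.03 CPM in asil1-1 asil2-1, against 16.6 ± 5.89 CPM in asil2-1 (log2 -2.46 ± 0.519, edgeR adjusted p = 0.00685).

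TCH4's own family, the wall enzyme genes, did not move as 1 group. Of 27 other XTH genes tested, 4 rose and 11 fell in asil2-1 against Col-0 (median -0.53), or 14.8% and 40.7% beside 21.9% and 19.3% of all genes tested. XTH30 rose to 38.9 ± 3.75 CPM in asil2-1, against 18.04 ± 3.98 CPM in Col-0 (log2 1.10 ± 0.148, edgeR adjusted p = 8.64e-06), while XTH31 fell to 3.61 ± 1.85 CPM in asil2-1, against 16.0 ± 4.69 CPM in Col-0 (log2 -2.12 ± 0.452, edgeR adjusted p = 0.00150). The 11 that fell became 3 after a correction for gene length, with 6 rising, 7 in the fit of the compared groups alone, and 4, 3 and 5 without asil2-1 replicate 1, Col-0 replicate 1 or Col-0 replicate 2. With Col-0 replicate 3 alone, fewer rose and fewer fell, and XTH31 was at -1.52 and no longer called. In asil1-1 against Col-0, 9 fell (median -0.34), where 8.35% of all genes tested were called lower. On leaving out asil1-1 replicate 1, 2 or 3 or Col-0 replicate 1 or 2, 2 to 5 fell, and fewer still with Col-0 replicate 3 alone. XTH19 was among the 9, with 0.762 ± 0.343 CPM in asil1-1, against 3.94 ± 2.00 CPM in Col-0 (log2 -2.38 ± 0.502, edgeR adjusted p = 0.00348), and was at -1.42 with an edgeR adjusted p of 0.325 with Col-0 replicate 3 alone. The summed root markers were 8.38 to 15.4 CPM in asil1-1 and 27.3 to 99.4 CPM in Col-0, and their part in these falls was not tested.

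Of the CAMTA factor genes, 6 of 6 rose in asil2-1 against Col-0 (median 0.56), where 21.9% of all genes tested were called higher, and 3 of the 6 were called after the length correction. Whether they act on the members here was not tested. SR1, a calmodulin-binding factor gene, had 104 ± 3.96 CPM in asil2-1, against 57.5 ± 2.61 CPM in Col-0 (log2 0.85 ± 0.125, edgeR adjusted p = 2.62e-05). In asil1-1 asil2-1 3 of 6 rose against Col-0 (median 0.38), where 20.5% of all genes tested were called higher, and 1 of 6 did after the length correction. The 3 were led by AT1G67310, annotated as a CAMTA-type factor, at 66.6 ± 7.06 CPM, against 43.9 ± 0.945 CPM in Col-0 (log2 0.60 ± 0.12, edgeR adjusted p = 5.68e-04). In asil1-1 asil2-2 against Col-0, 4 of 6 rose too (median 0.37), where 16.7% of all genes tested were called higher. That count was 1 to 5 on leaving out 1 library. The members' median in that comparison was -0.305, and 0.126 without Col-0 replicate 3. Of 13 genes of mechanosensing and calcium transport, 5 rose and 1 fell in asil2-1 against Col-0 (median 0.28), where 21.9% and 19.3% of all genes tested were called. These became 0 and 2 after the length correction, and both counts were lower with Col-0 replicate 3 alone. AT2G48060, annotated as a piezo-type mechanosensitive channel, had 93.0 ± 2.53 CPM in asil2-1, against 49.8 ± 5.07 CPM in Col-0 (log2 0.90 ± 0.174, edgeR adjusted p = 4.68e-04), and was not called after the length correction, at 0.09 on the log2 scale. In asil1-1 asil2-2 against Ler, 2 of the 13 rose and 2 fell, near the 14.8% and 13.5% of all genes tested (1 and 1 without Ler replicate 1 or asil1-1 asil2-2 replicate 3), among them AT3G63380, annotated as an ATPase of the E1-E2 type, at 45.7 ± 18.3 CPM in asil1-1 asil2-2, against 8.87 ± 2.73 CPM in Ler (log2 2.39 ± 0.306, edgeR adjusted p = 1.40e-05).

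**Figure D5:**
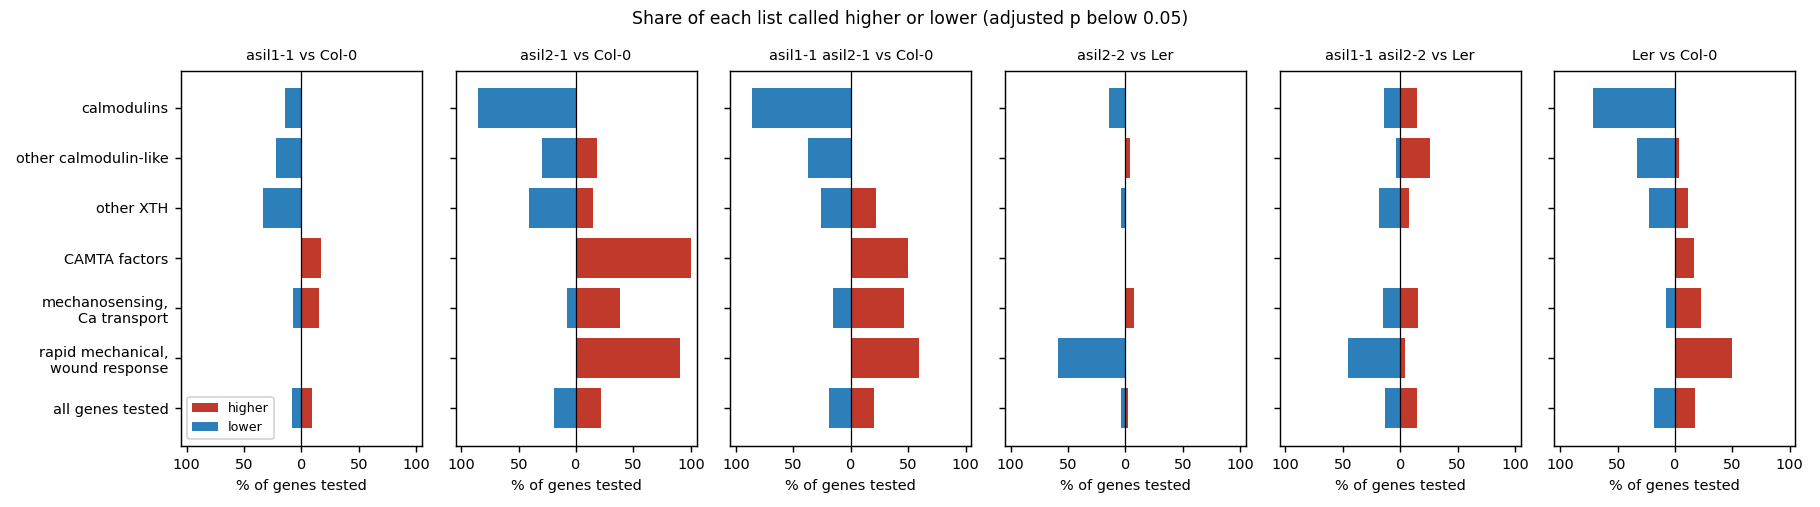
Share of the tested genes of each of the 6 lists, and of all genes tested, called higher (right of 0) or lower (left of 0) at an adjusted p below 0.05 in 6 comparisons, the first-named group against the second. In asil2-1 against Col-0, 20 of 22 rapid mechanical and wound response genes and 6 of 6 CAMTA factor genes were higher and 6 of 7 calmodulin genes were lower, and in asil2-2 against Ler 13 of the 22 were lower.

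Several members have a relative beside them on the chromosome. TCH3 lies 37 bases from AT2G41090, an EF-hand gene whose fold change was opposite in sign to that of TCH3 in both asil2 comparisons. AT2G41090 had a mean of 50.4 CPM in asil2-1, against 167 CPM in Col-0 (log2 -1.73 ± 0.439, edgeR adjusted p = 0.00588), and 153 CPM in asil2-2, against 34.3 CPM in Ler (log2 2.16 ± 0.449, edgeR adjusted p = 0.0109). Without Ler replicate 2 the asil2-2 call was lost, at 2.14 with an edgeR adjusted p of 0.0554, and with Col-0 replicate 3 alone the asil2-1 call was lost, at -1.18 with an edgeR adjusted p of 0.161. In asil1-1 asil2-2 against Ler both genes were higher, AT2G41090 at 2.57 ± 0.455 (edgeR adjusted p = 5.85e-04) and TCH3 at 0.73 ± 0.286. Their signs were also alike in asil1-1 against Col-0 and opposite in asil1-1 asil2-1 against Col-0. The wild types differed too, with AT2G41090 at -2.29 ± 0.452 in Ler against Col-0 (edgeR adjusted p = 0.00111). No source used here says whether the counting used strand, so reads between these close neighbours cannot be assigned with certainty. XTH25, 565 bases from TCH4, was not called in either comparison, at 0.18 ± 0.465 in asil2-1 (edgeR adjusted p = 0.787) and -0.81 ± 0.443 in asil2-2 (edgeR adjusted p = 0.305). CAM4, 2719 bases from CML23, fell in asil2-1 as given above. CAM1, 4846 bases from TCH2, fell by a log2 change of -0.41 ± 0.142 in asil2-1 against Col-0 (edgeR adjusted p = 0.0261), a call that leaving out any asil2-1 library, Col-0 replicate 2 or Col-0 replicate 3 ended (edgeR adjusted p 0.0549 to 0.0734), as did Col-0 replicate 3 alone (edgeR adjusted p = 0.147). CAM2 lies near TCH3 on chromosome 2 and was at 0.03 ± 0.138 in asil2-1 (edgeR adjusted p = 0.881), while it fell in asil2-2.

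Over the 21 libraries, likeness was measured as the mean absolute difference of log2 CPM after centring each gene, so that 0 is an identical pattern. These points share libraries and depth. Among the members the closest pair was TCH2 and CML23 at 0.345, and TCH4 and CML23 were the farthest apart at 0.895 with CML23 and CML37 at 0.889. The median distance over all genes was 0.612 from TCH2, 0.797 from TCH3, 1.05 from TCH4, 0.477 from CML23, 1.06 from CML37 and 0.791 from CML38. CML23 was farther than its median gene from TCH3 (0.580), CML38 (0.647), CML37 and TCH4. Outside the members, TCH2 was most like AT4G36500 at 0.146, the purine permease gene PUP14 at 0.167 and the calcium-dependent protein kinase gene CPK32 at 0.174. TCH3 was most like PUP18 at 0.237, AT5G52750 at 0.245 and AT1G72900 at 0.268. TCH4 was most like AT1G77640 at 0.282, the ethylene response factor gene ERF104 at 0.284 and DREB26 at 0.390. CML38 was most like ERF4 at 0.293, RDUF2 at 0.337 and MYB77 at 0.351, and CML37 most like AT1G72920 at 0.489, LOX4 at 0.513 and GATL10 at 0.521. CML23, at counts of 17 to 95 per library, was most like BRG1 at 0.176, SGR5 at 0.244 and PUB39 at 0.248.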

How the data were processed

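RNA of 21 seedling libraries was analysed from the authors' deposited count files, which hold raw read counts per locus, have no header and leave out loci at 0. The tools named per the submitters' processing notes are Bowtie 0.12.7 and edgeR 3.0.8, with TAIR10 as the build. No source used here gives the counting program, the strand setting or the handling of reads that map to several places. Loci were matched by name to RefSeq's TAIR10.1 table (23867 of 24100), which also gave exonic lengths, positions and upstream sequence.

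Counts were filtered by filterByExpr (19589 genes kept, 4511 removed), scaled by TMM (CPM values were computed here) and fitted with edgeR 4.0.16 (R 4.3.3) by robust quasi-likelihood, with the 7 group means as the model of all 21 libraries and 14 residual degrees of freedom. P-values were adjusted by Benjamini-Hochberg across every gene tested and called below 0.05, and the SE of a fold change comes from the F statistic. In data simulated for asil2-1 against Col-0 (19235 genes), 75% of log2 changes of 1 and 95.45% of changes of 2 were recovered. Replicates of a group differed by more than sampling noise (mean chi-square of at least 3.93 per gene).

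The members and lists were chosen with earlier results of these data known. Members were followed in every library and comparison without p-values. From each list and comparison up to 3 called genes with the smallest p could be named, besides the neighbours on the chromosome and the 3 genes most like each member. Alternatives were RLE scaling, no filter, a filter of CPM of at least 1 in 3 libraries, a replicate block, a length correction (lowess, span 0.3), DESeq2 1.42.0, the compared groups alone and leaving out each library. A fit in which Col-0 was represented by replicate 3 alone was added after seeing the data.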

Additional observations from a re-analysis of the deposited data

Results flagged for a closer look

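The effects of asil2-2 (against Ler) and asil2-1 (against Col-0) were compared by a test of the difference itself. It is given here as asil2-2 effect minus asil2-1 effect on the log2 scale. Of the 102 other genes tested, 16 were called higher and 36 lower, where 10.6% and 12.1% of all genes tested were. Named here are up to 3 called genes per list with the smallest p, 17 in all. That each passed the threshold therefore follows from how they were named. Among rapid response genes the difference was -5.36 for SZF1, -4.77 for CZF1 and -4.15 for ATL2. Of the 7 calmodulin genes, 5 were called the other way, among them CAM6 at 1.20, CAM5 at 1.01 and CAM4 at 0.88. CAM2 was called below 0, at -0.78 (edgeR adjusted p = 0.00608), and CAM1 was not called, at 0.15. EF-hand genes were at -4.61 (AT3G29000), 3.89 (AT2G41090) and 0.90 (AT1G12310), and XTH genes at -3.25 (XTH18), -1.58 (XTH30) and 1.29 (XTH32). CAMTA-type genes were at -0.78 (SR1) and -0.64 (AT1G67310), and mechanosensing and transport genes at 1.82 (AT3G63380), -0.74 (FER) and -0.74 (MCA2). All 17 had an edgeR adjusted p below 0.05, and with Col-0 replicate 3 alone AT1G67310, FER, AT3G63380, MCA2 and XTH32 did not (edgeR adjusted p 0.0528 to 0.171).

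TCH2, TCH3 and TCH4 are named because, in the 2 comparisons given for each, the groups did not overlap and lay in opposite directions. The difference was not tested, and the share of all genes tested that do the same in both comparisons was not counted. TCH2 was at 1.12 in asil2-1 and -0.96 in asil2-2 against their wild types, and TCH4 at 2.36 and -1.49. Taken singly, 27.8% of genes tested were higher in asil2-1 and 12.3% lower in asil2-2 without overlap. With asil1-1 added, TCH2 was at -0.72 in asil1-1 asil2-1 against asil2-1 and 0.45 in asil1-1 asil2-2 against asil2-2, and TCH3 at -1.10 and 1.38. There 13.5% of genes tested were lower and 19.4% higher without overlap, again taken singly.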

How the results depend on the processing

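RLE scaling, no filter, the CPM filter, the length correction, DESeq2 and the fit of the compared groups alone moved no median over the 6 members beyond the spread, and no total of the 102 other genes called in either direction by over 1.5 times. The spread is the SD between replicates of the members' median deviation from the group mean, 0.217 to 0.446 by comparison. Within it, the asil1-1 asil2-1 median against Col-0 went from 0.726 to 0.357 in the fit of the compared groups alone. Counts in 1 direction and of single lists did move: the length correction gave 12 falls in asil2-1 in place of 26, and changed list counts as given in the report. By DESeq2 4 other calmodulin-like genes were called in asil2-2 against Ler (1 by edgeR). With Col-0 replicate 3 as its only library, chosen after seeing the data, the genes called of 102 were 2 in asil1-1 (20 with all libraries), 32 in asil2-1 (66), 23 for asil1-1 asil2-1 (53), 20 for the mixed double mutant (35) and 23 for Ler (40), all against Col-0, with 32 (52) for the difference of the asil2 effects. The medians were then -1.07, 1.24, 0.20, -0.80, -0.52 and -2.30. This fit has 1 Col-0 library, assumed to vary like the other groups; any further cause was not tested.

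Leaving out 1 library at a time gave 6 to 20 genes called in asil1-1, 54 to 67 in asil2-1, 40 to 60 in asil1-1 asil2-1, 24 to 38 in asil1-1 asil2-2 and 29 to 42 in Ler against Col-0, 7 to 22 in asil2-2 and 23 to 28 in asil1-1 asil2-2 against Ler, 20 to 26 in asil1-1 asil2-1 against asil1-1, 10 to 22 against asil2-1, 17 to 24 in asil1-1 asil2-2 against asil2-2 and 45 to 52 for the difference. The count moved by over 1.5 times in asil1-1 without any library but Col-0 replicate 3, in asil2-2 without asil2-2 replicates 1 or 2 or Ler replicates 2 or 3, in asil1-1 asil2-1 against asil2-1 without asil1-1 asil2-1 replicate 1 (11) or asil2-1 replicate 3 (10), and in asil1-1 asil2-2 against asil2-2 without asil2-2 replicates 1 (17) or 2 (17). Medians ranged from -0.73 to -0.24 in asil1-1, 1.65 to 2.09 in asil2-1, 0.58 to 1.05 in asil1-1 asil2-1, -0.45 to 0.13 in asil1-1 asil2-2 (0.13 without Col-0 replicate 3) and -0.08 to 0.42 in Ler, against Col-0. They ranged from -0.95 to -0.73 in asil2-2 and -0.62 to -0.37 in asil1-1 asil2-2 against Ler, 0.88 to 1.16 in asil1-1 asil2-1 against asil1-1, -1.21 to -0.87 against asil2-1, 0.21 to 0.52 in asil1-1 asil2-2 against asil2-2, and -3.04 to -2.51 for the difference. The piezo-type gene AT2G48060 in asil1-1 against Col-0 turned to -0.072 after the length correction.

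Same-numbered libraries did not all deviate together in any comparison (correlations of -0.40 to 0.35, never all over 0.1). Single pairs did, as in asil1-1 asil2-1 against asil1-1 (0.352, 0.126 and -0.063) and Ler against Col-0 (0.213, -0.037 and 0.283). With 3 pairs per comparison, these correlations cannot settle whether the numbers pair samples. With a replicate block the median over the members was 1.85 for asil2-1 over Col-0 and -0.80 for asil2-2 over Ler, with 66 and 19 genes called; in asil1-1 asil2-1 against asil1-1, 36 were called (29 without the block). No total moved by over 1.5 times. Depth limits CML23, CML37, CML38 and above all CML39, and intervals from counts cover counting error only.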

Other observations

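ASIL2 transcript and TCH3 transcript had the same 3 highest groups and the same lowest group, in the same order, and both are given here as values only. ASIL2 averaged 435 ± 54.5 CPM in asil2-1, 168 ± 32.5 CPM in asil1-1 asil2-1 and 75.9 ± 15.5 CPM in asil1-1 asil2-2, and 24.4 ± 6.45 CPM in asil2-2 (SD, n = 3). TCH3 averaged 639 ± 100.3 CPM in asil2-1, 297 ± 85.8 CPM in asil1-1 asil2-1 and 263 ± 22.5 CPM in asil1-1 asil2-2, and 101 ± 34.2 CPM in asil2-2. The groups asil1-1, Ler and Col-0 lay between them, with ASIL2 at 54.1 ± 3.57, 31.6 ± 4.15 and 38.1 ± 8.97 CPM and TCH3 at 129 ± 42.7, 157 ± 34.1 and 143 ± 39.9 CPM. TCH2, TCH4 and CML38 shared the highest and the lowest of these groups, while the mean of CML38 was lower in asil1-1 asil2-1 than in Col-0, with overlap.

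The upstream windows of the 22 rapid mechanical and wound response genes held the W-box core in 16, against 45.1% of all windows, and the CGCG core in 4, against 10.7%. No test of these shares was made.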
